A study of Homo sapiens with 6 samples.

Results

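ARSJ and MTCL1 are 2 coding genes with more peaks in the METTL3 knockdown than in the control in U-251 MG cells, an established line from a human glioblastoma, whose N6-methyladenosine (m6A) was mapped by methylated RNA immunoprecipitation sequencing. The assay enriches RNA fragments with an anti-m6A antibody, and regions richer in the enriched RNA than in the input are listed as peaks. The 2 genes were chosen by their peak numbers, at least 2 times as many shMETTL3 as control peaks, so these numbers are a description and carry no test. All deposited peaks that touch their RefSeq gene bodies (GRCh38.p14) were taken, 28 of the 17375 peaks in the lists: 18 of 5433 in shMETTL3, 4 of 2736 in shTRA2A and 6 of 9206 in shNC. All 28 lay on the strand of their gene.

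The groups are shMETTL3, cells with a short hairpin RNA against METTL3, the methyltransferase that makes m6A; shTRA2A, cells with a hairpin against TRA2A, an RNA-binding protein that regulates splicing; and shNC, cells with a control hairpin. Each has 1 immunoprecipitated and 1 input library, 6 libraries in all, and is represented by 1 peak list. There are therefore no replicates, and no difference described here was tested. Read depth and the precision it gives are unknown, since the lists hold no read counts. Each peak carries a score from the authors' peak caller, whose scale is not stated. Larger scores were read as stronger peaks and ranked within their own list. Ranks from different lists cannot be set against each other.

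m6A is written on nascent transcripts by the METTL3 and METTL14 complex, mostly in long exons and around the start of the 3′ untranslated region. ARSJ encodes arylsulfatase J, a member of the sulfatase family, whose enzymes remove sulfate groups from their substrates after a formylglycine residue has been made in their active site. MTCL1 encodes microtubule crosslinking factor 1, which binds and stabilises microtubules that do not start from the centrosome. Neither protein is part of the m6A machinery.

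ARSJ (gene ID 79642) spans 79364 nt of the minus strand, chr4:113900284-113979647. Its peaks lay at the ends of the body and nowhere in between, at most 1040 nt from the annotated start or at least 76014 nt from it. The exons of the gene were not used here, so peaks are placed by distance and not by exon or untranslated region. One stretch of a peak is held by the sequence tables used here, 19 bases of the shMETTL3 peak nearest to the gene start, and it is shown because this peak is the farthest from a control peak in the gene, by 75873 nt. It was read from RefSeq (GRCh38.p14) at chr4:113979563-113979581 and turned to the minus strand, the strand of the RNA. The capitals mark GGAC and the base after it, the only copy in these 19 bases. GGAC is a common core of sites at which METTL3 is known to methylate the adenosine.
ARSJ peak, 5′ end: cgcggggctagGGACCcgg
The RNA strand alone was searched, for GGACN. The 19 bases are held by the start window of another gene, LOC107986305 on the plus strand, and were read on the strand opposite to it. Of 35114 other RefSeq start windows read at the same bases in the same way, 5.89% held GGACN. Those bases lie before the starts of other genes, so the share is not one for 5′ ends of RNAs. The match describes the letters and is no evidence of a methylated site.

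At the 5′ end of ARSJ, shMETTL3 had 4 peaks, shTRA2A had 1 and shNC had none. The 4 shMETTL3 peaks began 66, 166, 516 and 941 nt after the annotated start and were 75, 125, 75 and 100 nt wide. Their scores were 10.0, 6.28, 8.35 and 6.57, at ranks 1656, 4807, 2760 and 4688 of 5433. One of the 4 was thus in the better-scoring 50% of the list, the one nearest to the start. The shTRA2A peak, at chr4:113979107-113979181, had a score of 7.88 and rank 1586 of 2736. It shared 25 nt with the third shMETTL3 peak, at chr4:113979057-113979131. The other 3 shMETTL3 peaks were 175 to 400 nt away from it.

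In its 3′ part ARSJ had 5 shMETTL3 peaks, 1 shTRA2A peak and 4 control peaks. The control peaks ran over 1800 nt, from 113901834 to 113903633, and covered 1225 nt there. The shMETTL3 peaks ran over 650 nt inside that stretch, from 113902284 to 113902933, and covered 325 nt. The knockdown thus had more peaks than the control in this part but covered fewer bases.

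The strongest ARSJ peak of the control, at chr4:113902809-113903533, was 725 nt wide with a score of 64.6 and rank 161 of 9206. One shMETTL3 peak of 100 nt lay inside it, at chr4:113902834-113902933, with a score of 8.54 and rank 2554 of 5433. The ARSJ peak of shTRA2A in this part, at chr4:113902884-113902983, also lay wholly inside it, with a score of 8.37 and rank 921 of 2736. These knockdown peaks shared 50 nt with each other, so 1 stretch of ARSJ was in a peak in all 3 lists.

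The strongest shMETTL3 peak of the gene was elsewhere, at chr4:113902284-113902333, 50 nt wide with a score of 14.5 and rank 658 of 5433. It lay inside a control peak of 225 nt at chr4:113902184-113902408, whose score was 19.8 at rank 2031 of 9206. A second shMETTL3 peak, at chr4:113902384-113902433, shared 25 of its 50 nt with that control peak and had a score of 5.57 at rank 5016. The 2 shMETTL3 peaks at 113902509-113902583 and 113902609-113902658, with scores of 7.20 and 8.08, fell in the gap between control peaks, 100 and 150 nt from the nearest one. The control peaks at 113901834-113902033 (score 17.3) and 113903559-113903633 (score 17.6) had no knockdown peak on them.

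**Figure D1:**
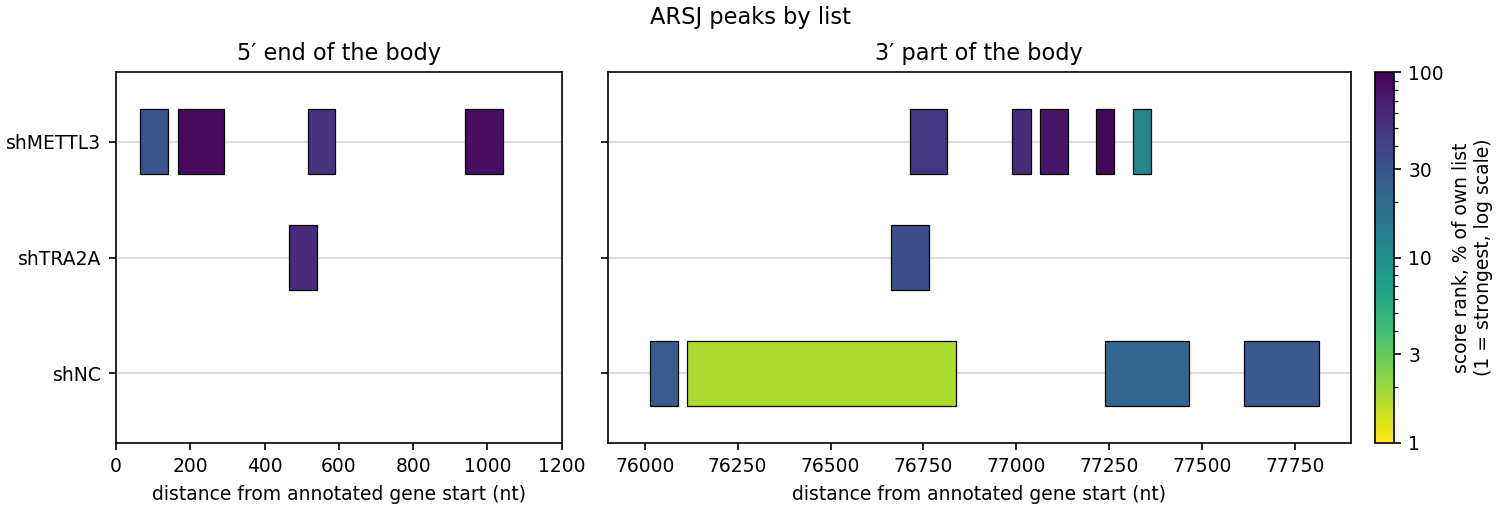
ARSJ peaks in shMETTL3, shTRA2A and shNC by distance from the annotated gene start in nt, drawn to scale, with the 5′ end on the left and the 3′ part on the right. Colour is the score rank as a percent of the peak's own list. The 5′ end holds 4 shMETTL3 peaks, 1 shTRA2A peak and no control peak, and the 725 nt control peak in the 3′ part is the strongest of the 4 shNC peaks.

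MTCL1 (gene ID 23255) spans 127223 nt of the plus strand, chr18:8705556-8832778. It had 9 shMETTL3, 2 shTRA2A and 2 control peaks. Unlike those of ARSJ, which were 50 to 725 nt wide, its peaks were 50 to 5854 nt wide, and they were spread over the body. Of the shMETTL3 peaks, 5 had widths that are not a multiple of 25 nt, the step of most peaks in the lists, and both control peaks had such widths. In ARSJ no peak had one. Such widths made up 29.7% of all shMETTL3 peaks and 19.4% of all control peaks.

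Both MTCL1 control peaks had a shMETTL3 peak on them, and each pair began at the same base. At chr18:8717920-8718430 shMETTL3 had a peak of 511 nt (score 8.39, rank 2725 of 5433), and shNC a peak of 586 nt at chr18:8717920-8718505 (score 14.5, rank 3521 of 9206). The ends of this pair differed by 75 nt. At chr18:8813145-8813219 shMETTL3 had a peak of 75 nt, its strongest in the gene (score 10.7, rank 1438), while the control peak that begins there ran for 5854 nt, to 8818998 (score 14.2, rank 3665). Of all shMETTL3 peaks on a control peak, 358 of 1775 shared a start in this sense, 20.2% (exact Clopper-Pearson 95% interval 18.3 to 22.1%).

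The other 7 shMETTL3 peaks of MTCL1 were on no control peak. Of these, 5 lay in a row between the 2 control peaks, from 72400 to 92591 nt after the gene start. They were a peak of 4210 nt at chr18:8777956-8782165 (score 10.2, rank 1597), 2 narrow ones at 8784253-8784302 and 8784378-8784452 (scores 9.75 and 7.15), one of 5704 nt at 8787299-8793002 (score 7.62) and one of 1784 nt at 8796364-8798147 (score 9.44). All 5 were at least 14997 nt from a control peak. A sixth, of 1032 nt at chr18:8810100-8811131, ended 2013 nt before the long control peak and had the lowest score of the 9, 4.41, at rank 5257 of 5433. The seventh lay past it, at chr18:8825931-8826005, with a score of 7.09.

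The 2 shTRA2A peaks of MTCL1 were beside this last shMETTL3 peak and on neither control peak. They lay at chr18:8825556-8825680, 125 nt wide with a score of 7.77 (rank 1808 of 2736), and at chr18:8825831-8825880, 50 nt wide with a score of 7.36 (rank 2425). The second was 50 nt from the shMETTL3 peak, so that all 3 fell within 450 nt, while the nearest control peak ended 6557 nt before them. No base of MTCL1 was in both a shMETTL3 and a shTRA2A peak.

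**Figure D2:**
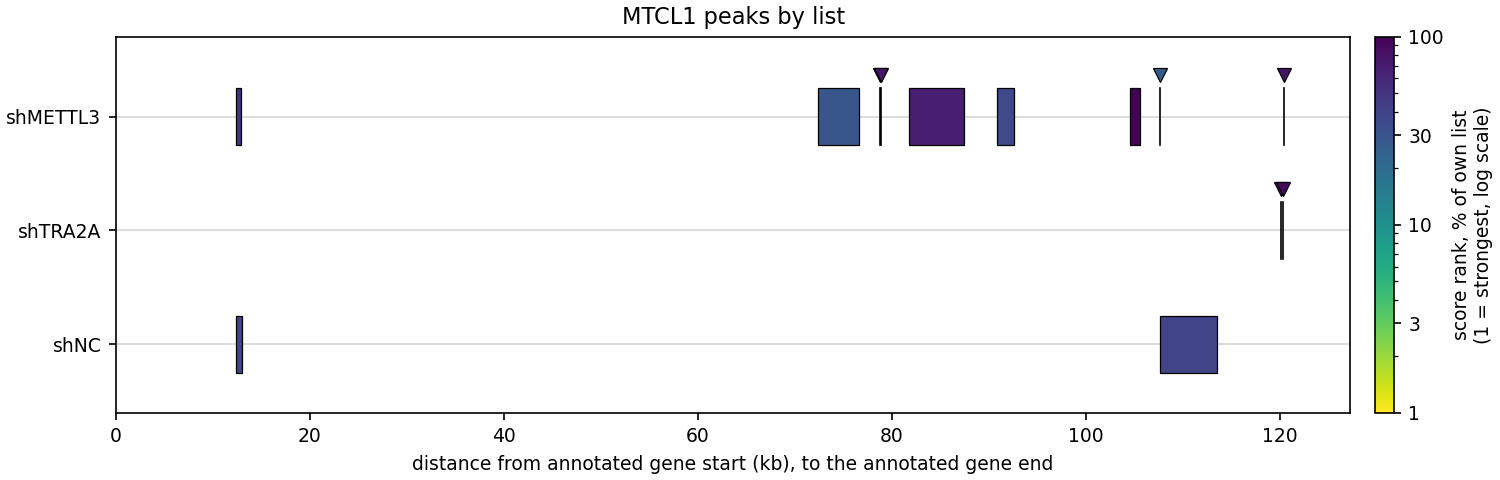
MTCL1 peaks in shMETTL3, shTRA2A and shNC by distance from the annotated gene start in kb, coloured by score rank as a percent of the own list. Boxes are peaks over 300 nt, to scale, and lines with a triangle are narrower peaks, of which close neighbours run together. Wide shMETTL3 peaks stand between the 2 control peaks, which are the only ones in shNC.

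Most shMETTL3 peaks of both genes were thus away from control peaks, 6 of 9 in ARSJ and 7 of 9 in MTCL1. This was also so of the whole shMETTL3 list, in which 3658 of 5433 peaks, 67.3% (66.1 to 68.6%), were on no control peak, so the share is not particular to the 2 genes. Counted in bases, 175 of 700 nt in ARSJ shMETTL3 peaks were on a control peak, 25%, and 586 of 13516 nt in MTCL1, 4.34%. Measured as full spans from first to last base, the covered length went opposite ways in the 2 genes. ARSJ peaks covered 700 nt in shMETTL3, 175 nt in shTRA2A and 1225 nt in shNC, and MTCL1 peaks 13516, 175 and 6440 nt. The MTCL1 lengths are full spans of wide peaks, which may cross introns. The lists also give the blocks, the separate stretches that make up a peak. Block sizes were not used for lengths or overlaps, so the bases inside blocks were not counted. Peaks of a single block, of at most 1000 nt and a multiple of 25 nt, are called regular here. They covered 275 nt of MTCL1 in shMETTL3, 175 nt in shTRA2A and none in shNC, where neither control peak is regular.

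The place of each peak in its own list is given as a description of that list alone, since the lists differ in length and in lowest score. In ARSJ the shMETTL3 ranks ran from 12.1% to 92.3% of the list, with 3 of 9 peaks in the better-scoring 50%, and the control ranks from 1.75% to 28.2%. In MTCL1 the shMETTL3 ranks ran from 26.5% to 96.8%, with 4 of 9 in the better-scoring 50%, and the control peaks were at 38.2% and 39.8%. The shTRA2A peaks were at 33.7% and 58.0% in ARSJ and at 66.1% and 88.6% in MTCL1. The shMETTL3 list reaches down to a score of 3.33 and the control list to 6.04. One shMETTL3 peak of each gene scored under the lowest control score, as did 540 of all 5433. Whether a given score means the same in both lists was not tested.

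**Figure D3:**
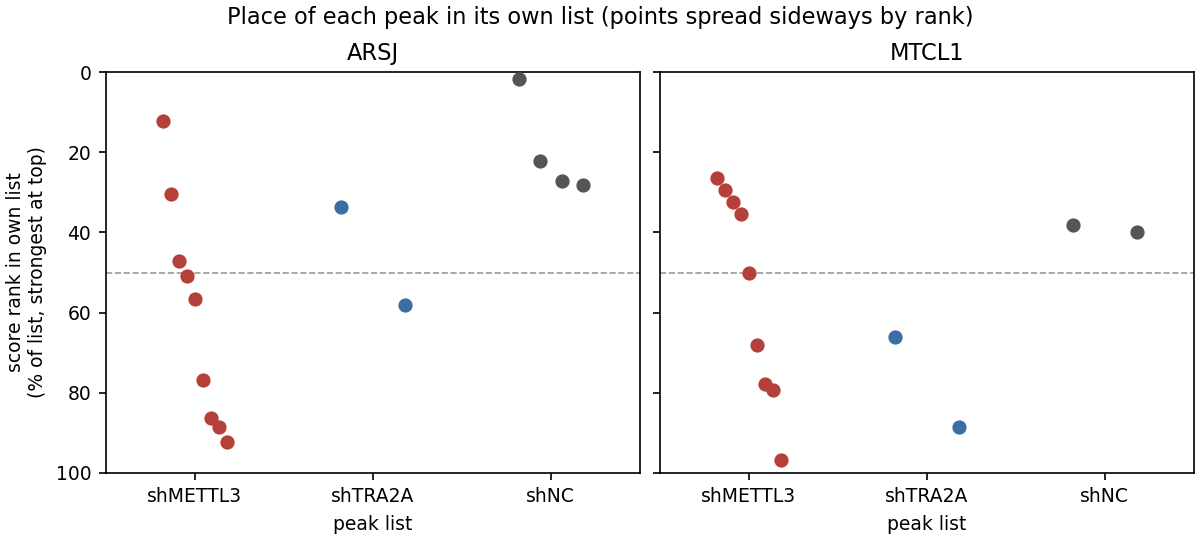
Score rank of every ARSJ and MTCL1 peak in shMETTL3, shTRA2A and shNC as a percent of its own list, strongest at the top, with a dashed line at 50%. The line marks the middle of each list, and places are to be read within a list, not between lists. The shMETTL3 peaks of both genes lie on both sides of it.

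The rule that chose the genes was also applied to all others. Of 1995 genes with at least 2 control peaks, 22 had at least 2 times as many shMETTL3 peaks, 1.10% (0.692 to 1.66%), ARSJ and MTCL1 among them. As the rule used this contrast, nothing is read from the share. Peak numbers of shTRA2A reached 2 times the control's in 7 of the 1995 genes, 0.351% (0.141 to 0.722%). ARSJ and MTCL1 were not among these 7, with 2 shTRA2A peaks each against 4 and 2 control peaks. In the other direction 1525 genes, 76.4% (74.5 to 78.3%), had at least 2 times as many control as shMETTL3 peaks. Genes without a shMETTL3 peak are included, and the control list is the longer, with 9206 against 5433 peaks. The difference of 7 peaks in MTCL1 was the largest of any gene in the lists, and 3 genes had a larger difference than the 5 of ARSJ. With regular peaks alone no gene had a larger difference than ARSJ, and 4 genes exceeded MTCL1. There were 6 genes with 9 or more shMETTL3 peaks. Of the other 4, ZC3H13, a subunit of the writer complex, had more shMETTL3 than control peaks, and CENPF, PRRC2C and FAT1 had fewer.

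At the edge of the rule, BDNF, a neurotrophin, had 6 shMETTL3, 0 shTRA2A and 3 control peaks, just inside, and TNRC18, which had 7, 2 and 4, was the nearest outside. The other genes inside it with the most shMETTL3 peaks were MTCL2, with 7, 3 and 3, and RALGAPB, a subunit of a GTPase-activating complex for Ral, with 7, 1 and 2. By the sum of absolute differences in peak number over the 3 lists, the gene most like ARSJ was MTCL1, at a sum of 2, tied with TNRC18. PARP14, an antiviral ADP-ribosyltransferase with 6, 2 and 4 peaks, followed at 3, MTCL2 at 4, and ASPM, a mitotic spindle protein with 8, 0 and 6, at 5. After ARSJ the genes most like MTCL1 were MYH10, a non-muscle myosin heavy chain (7, 2 and 1), and RALGAPB, both at 3, then CHD7, a chromatin remodeller (5, 2 and 2), and KLHDC4 (6, 2 and 1), both at 4. These sums rest on 3 lists of 1 library pair each. At the sum of 5 from ARSJ and the sum of 4 from MTCL1 several genes were as near, and those named come first by symbol.

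**Figure D4:**
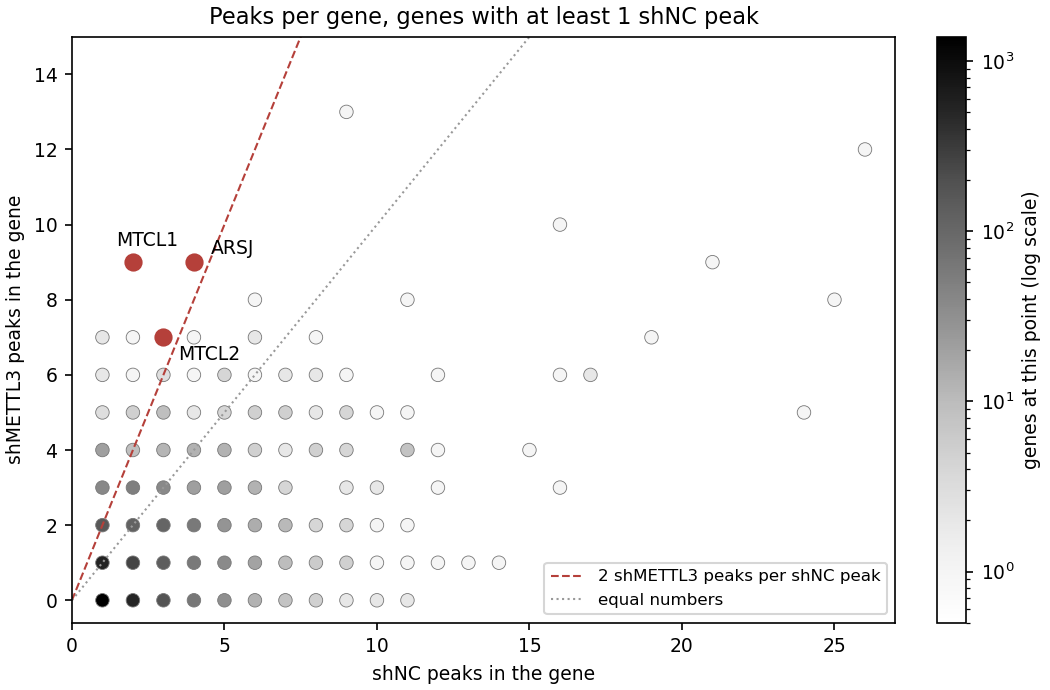
Number of shMETTL3 peaks against shNC peaks for every gene with at least 1 shNC peak, shaded by the number of genes at each point. ARSJ, MTCL1 and MTCL2 are marked in red on the side of the dashed line with more than 2 shMETTL3 peaks per shNC peak, and most genes lie below the dotted line of equal numbers.

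A start with several peaks, as in ARSJ, was uncommon in the shMETTL3 list and in the control list alike. In genes with a RefSeq start window, and on the gene's strand, 336 of 4067 shMETTL3 peaks lay within 1200 nt of the annotated start, 8.26% (7.43 to 9.15%). The shares were 154 of 2024 in shTRA2A, 7.61% (6.49 to 8.85%), and 371 of 7008 in shNC, 5.29% (4.78 to 5.84%). Those shMETTL3 peaks were in 306 genes, of which 236 had no control peak in that window. The control peaks there were in 310 genes, most of which likewise had no shMETTL3 peak in the window. There were 2 genes with 4 or more shMETTL3 peaks there, ARSJ without a control peak and HEXIM1, an inhibitor of the elongation factor P-TEFb, with 2. The control list had 3 genes with 4 or more peaks there, 1 of them without a shMETTL3 peak. The window of 1200 nt was set after the ARSJ peaks had been seen.

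Relatives of the 2 genes divided. Over all genes with at least 2 control peaks, 22 of 1995 (1.10%) were above the 2-fold rule. The lists of relatives are too small to be set against that share. Of the MTCL family, MTCL2 was also above the 2-fold rule, with 2 of its 7 shMETTL3 peaks on a control peak and all of them regular, and MTCL3 was not, with 1 shMETTL3, 1 shTRA2A and 2 control peaks. Of 19 sulfatases and their activating enzymes, 7 had a shMETTL3, 5 a shTRA2A and 7 a control peak. Of 20056 coding and 18330 long non-coding genes together, 3233, 1830 and 4147 had such a peak. Both kinds of gene are pooled in these counts, so they give no share for coding genes alone. ARSJ was the only one of the 19 above the rule, among the 3 with at least 2 control peaks. After ARSJ the most peaks in that list were in SULF2, an extracellular heparan sulfate sulfatase (1, 1 and 2), ARSD (1, 0 and 2) and GALNS, a lysosomal sulfatase (1, 2 and 0). Genes of heparan and chondroitin sulfate synthesis had 16 shMETTL3, 9 shTRA2A and 38 control peaks, with none of 9 genes above the rule. SLC26A2, a sulfate transporter, had 5, 0 and 3, and EXT1, a heparan sulfate polymerase, 0, 0 and 7. CHSY1, a chondroitin synthase, had 1, 0 and 5, and EXT2, the partner of EXT1, 1, 1 and 4.

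Other genes of non-centrosomal and Golgi microtubules had 33 shMETTL3, 26 shTRA2A and 86 control peaks in 29 genes, with none of 12 above the rule. At the share of 1.10% over all genes, none among so few is unremarkable, and nothing is read from it. MACF1, a cytoskeletal linker, had 7, 8 and 19, AKAP9, a scaffold of the Golgi and centrosome, 1, 3 and 14, CAMSAP2, a binder of microtubule minus ends, 4, 3 and 9, and MAP1B 4, 2 and 8. In the writer complex none of 5 genes was above the rule, with 13, 8 and 9 peaks in ZC3H13, 5, 1 and 7 in VIRMA, 3, 3 and 3 in RBM15B and 0, 0 and 5 in WTAP. METTL3 had no peak in any list and TRA2A had 1 shTRA2A peak. Peak lists hold no transcript levels, so they show neither the depth of the knockdowns nor the expression of ARSJ and MTCL1. Of 10 markers of glial and glioblastoma cells 5 had a shMETTL3, 3 a shTRA2A and 5 a control peak, while markers of neurons, of microglia and leukocytes, and of endothelium had none. Neither gene had a peak within 5000 nt outside its body, and the coding genes next to them, CAMK2D and UGT8 beside ARSJ and RAB12 and NDUFV2 beside MTCL1, had no peak in any list.

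The excess of shMETTL3 over control peaks turned round in ARSJ under some ways of counting. In MTCL1 it did not, though some of these ways left no control peak to compare. With peaks within 100 nt of each other joined, ARSJ had 5 shMETTL3 and 3 control peaks and fell under the 2-fold rule. Of these 5, 3 were at the 5′ end, where the control still had none. In the better-scoring 50% of each list ARSJ had fewer shMETTL3 than control peaks, 3 against 4, and 1 of the 3 was at the 5′ end. With 2736 peaks taken from each list the counts were again 3 and 4. MTCL1 had 8 shMETTL3 and 2 control peaks after joining and 4 and 2 in the better-scoring 50%. It had 5 and 0 at equal list lengths and 4 and 0 among regular peaks. There the limits themselves removed both control peaks, which rank 3521 and 3665 of 9206 and are not regular. These settings therefore cannot show whether the excess holds.

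**Figure D5:**
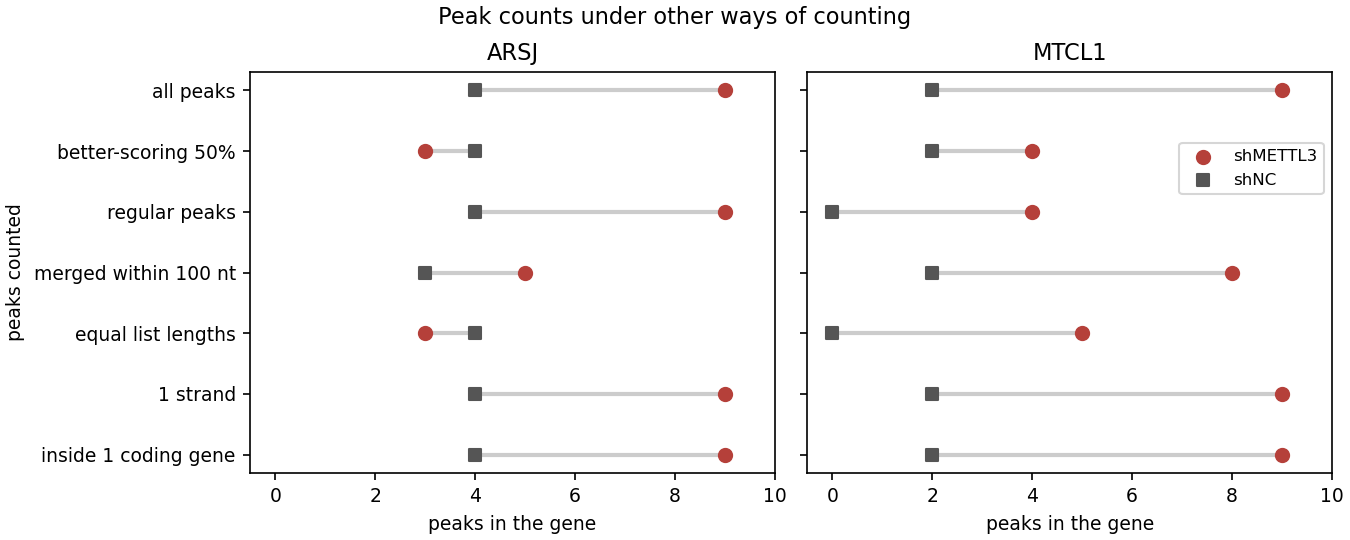
Number of shMETTL3 peaks (red circles) and shNC peaks (grey squares) in ARSJ and MTCL1 for each way of counting, 1 per row. In ARSJ the shMETTL3 count falls to 3, under the 4 of shNC, in the better-scoring 50% and at equal list lengths. In MTCL1 it is above shNC in every row, but with regular peaks and at equal list lengths the limits leave no shNC peak.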

How the data were processed

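The labels give 1 immunoprecipitated and 1 input library per condition, and no comparison between conditions was tested. The deposited files are 12-column peak lists. Alignment and counting tools named in the submitters' processing notes are HISAT2 2.2.1, featureCounts 2.0.1 and SAMtools, with the build GRCh38. For the peak caller and its thresholds, the sources used here give nothing. The score in column 5 is the authors' own, as deposited, with its scale unstated. Of 4 lists, 1 matches no label, equals the shTRA2A list and was left out.

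The members, gene lists and tests were chosen with earlier results of these data known. Peaks were turned to count from 1. A peak went to the coding gene it touches. Where it touched several it went to the innermost, and otherwise to a long non-coding gene. Taken from its first to its last base, a peak was on another if they shared at least 1 base on 1 strand. The overlap step, tested on simulated data, differed from bedtools 2.31.1 for 0 shMETTL3 peaks. The work used scipy 1.17.1, pandas 2.3.3 and numpy 2.4.6 under Python 3.11.15. Exact Clopper-Pearson 95% intervals treat peaks or genes as independent and cover counting error alone. Gene starts and strands came from RefSeq start windows, 250 nt before to 50 nt after a start. Named were the 5 genes most like each member, the 5 above the 2-fold rule with the most shMETTL3 peaks, up to 4 genes with the most peaks per list, neighbours, METTL3 and TRA2A. CENPF, PRRC2C, FAT1, TNRC18 and HEXIM1 were named after their values were seen.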

Additional observations from a re-analysis of the deposited data

How the results depend on the processing

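Counts from 1 strand, or from peaks inside a single coding gene, stayed within 1.5 times the reported ones. In ARSJ the 9 shMETTL3 peaks became 3 both at equal list lengths and among the better-scoring 50% of peaks, under the 4 control peaks, and 5 after joining within 100 nt. In MTCL1 the 9 became 4 in the better-scoring 50%, 4 with regular peaks and 5 at equal lengths. The 22 genes above the 2-fold rule became 6 in the better-scoring 50%, 9 after joining and 8 at equal lengths, and 3, 6 and 2 of these were among the 22. With regular peaks 15 genes were above the rule, and 10 of them were among the 22. ARSJ was one of these, and MTCL1, left without a control peak, was not. With midpoints within 100 nt in place of a shared base, 1 shMETTL3 peak of ARSJ was on a control peak, against 3, and 1 of MTCL1, against 2. For MTCL1 this count was 1 in the better-scoring 50% and 0 with regular peaks, where no control peak is left. Fewer peaks enter when scores, widths, blocks or list lengths are limited. Joining turns several peaks into 1, and the midpoint rule asks for nearness of centres in place of shared bases. No further cause was tested. No paired analysis was possible because each condition has 1 list.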
